A study of Mus musculus with 6 samples.

Results

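The genes described here were present in every control KD library and close to absent in every *Yy1* KD library. They were chosen by their values in this contrast, with a TPM of at least 2 in all 3 control KD libraries and under 1 in all 3 *Yy1* KD libraries. TPM is the number of read pairs per exon length, scaled to 1000000 per library. The limits were met by 24 reported genes of the 55364 identifiers listed, and by 0.191% of the 12564 genes that had at least 2 TPM in all control KD libraries. The reverse limits, under 1 TPM in all control KD libraries and at least 2 TPM in all *Yy1* KD libraries, were met by 20 genes, or 0.161% of the 12415 genes at or above 2 TPM in all *Yy1* KD libraries. Since the values themselves made the choice, the differences between the groups are given as a description and are not tested.

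YY1 is a zinc finger protein that binds DNA at promoters and enhancers and can raise or lower transcription depending on the context. The consensus it binds is common near the start sites of genes. At the morula stage the mouse embryo is a compacted ball of cells, shortly before the blastocyst forms.

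Both groups were morulae from BDF1 x BDF1 crosses, fertilised in vitro, injected with a siRNA as zygotes and cultured in KSOM. Control KD embryos are labelled as a control knockdown, and in *Yy1* KD embryos the siRNA was directed against *Yy1*. Each library held a pool of 10 morulae collected 64 h after insemination, with 3 libraries per group, and no source names separate litters or days, so that the spread between libraries is that between pools. A pool gives the total over all its cells, so that fewer cells expressing a gene and less RNA per cell cannot be told apart.

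*Yy1*, the target, was at 96.0, 100.2 and 89.8 TPM in control KD and at 8.73, 8.90 and 8.32 TPM in *Yy1* KD libraries (exact permutation test, two-sided, p = 0.1, which is the lowest value possible with 3 against 3 libraries). Recovered depth was between 12109122 and 25066150 read pairs on genes per library, and control KD replicate 2 was the deepest. Of the marker lists, all 8 inner cell mass genes and 7 of 8 trophectoderm genes were at 1 TPM or more in all control KD libraries (*Elf5* was under 1 TPM in all 6 libraries), and so were 4 of 6 primitive endoderm genes and all 9 maternal genes. Of the 8 cumulus and granulosa cell genes none reached this level, and *Cyp19a1*, *Fshr*, *Has2*, *Ptx3* and *Tnfaip6* were listed at 0 in all 6 libraries. The 2-cell list had 2 of 9 genes at this level. None of the 24 genes belongs to any of these lists. Summed levels of the lists were 1634 to 1825 TPM in control KD and 1553 to 1663 TPM in *Yy1* KD libraries for the inner cell mass, 839.2 to 913 against 638 to 838.8 TPM for trophectoderm, without overlap, 214 to 220 against 203 to 224 TPM for primitive endoderm, 57.4 to 76.9 against 57.2 to 75.7 TPM for maternal genes, 8.88 to 16.6 against 5.77 to 26.0 TPM for 2-cell genes and 0.871 to 2.61 against 0.928 to 2.45 TPM for cumulus and granulosa cells. Of all these marker genes only the trophectoderm gene *Tfap2c* was called at an adjusted p under 0.05 by limma, a linear model fitted to log2(TPM + 1) over all genes. It was at 192, 179 and 179.7 TPM in control KD and at 135, 116 and 125 TPM in *Yy1* KD libraries (log2 fold change -0.54, limma adjusted p = 0.0174). The other tested trophectoderm genes had log2 fold changes of 0.002 (*Cdx2*), 0.04 (*Krt18*), -0.05 (*Tead4*), -0.13 (*Eomes*), -0.14 (*Gata3*) and -0.45 (*Krt8*). Over all genes tested, 4.2% were called lower in *Yy1* KD. Lower in *Yy1* KD without overlap were *Sox2* (8.73 to 14.3 against 4.02 to 7.03 TPM) and *Fgf4* (12.2 to 21.2 against 5.25 to 9.03). So were *Tdgf1* (39.5 to 78.4 against 26.3 to 35.8 TPM) and *Pdgfra* (4.78 to 9.12 against 2.44 to 4.31 TPM). *Gata6* was higher without overlap, and the other inner cell mass genes overlapped. Lower values without overlap were seen for 17.2% of all genes tested. The part of cell composition in the 24 genes was not tested.

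**Figure D1:**
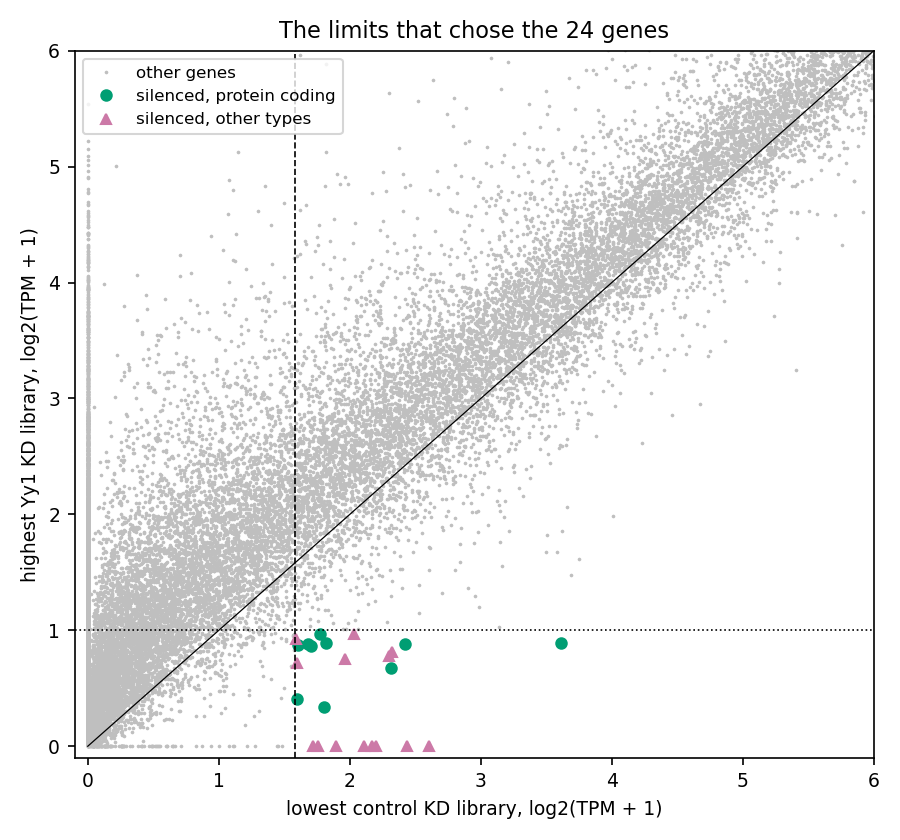
Each point is a gene, with its lowest control KD level on the x axis and its highest *Yy1* KD level on the y axis, both as log2(TPM + 1) and shown up to 6. The dashed line marks 2 TPM and the dotted line 1 TPM. The 24 genes lie to the right of the first and below the second, 8 of them, all of other types than protein coding, at 0 on the y axis.

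By their symbols, 8 of the 24 were named genes, 2 were zinc finger (Zfp) genes, 7 were numbered Gm models, 4 were miRNA genes, 2 were Rik clones and 1 carried a pseudogene suffix. By annotated type, 10 were protein coding, 5 were miRNA, 2 snRNA, 1 snoRNA and 1 misc_RNA genes, 3 were pseudogenes, 1 was an antisense gene and 1 was of the type TEC, a transcribed region without an established gene model. Protein-coding genes met the limits in 10 of 9430 cases (0.106%) and short RNA genes (miRNA, snoRNA, snRNA and misc_RNA) in 9 of 719 cases (1.25%). Under the reverse limits the same classes gave 3 of 9308 (0.0322%) and 7 of 685 (1.02%). The difference between the directions was not tested. The 24 genes lay on 13 chromosomes, 6 of them on chromosome 2.

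The level of the 10 protein-coding genes was low already in control KD morulae, which the limit of 1 TPM in *Yy1* KD favours. Their control KD means lay between 2.23 and 11.6 TPM, against a median of 19.6 TPM over all protein-coding genes at or above 2 TPM in all control KD libraries. They did not go to 0. Between 4.46% (*Commd2*) and 25.9% (*Akap9*) of the control KD mean was still measured in *Yy1* KD morulae, from 8.5 to 247 recovered read pairs over the 3 libraries. The word silenced therefore stands here for a level under 1 TPM and not for an absent transcript. Among the 3353 protein-coding genes in the same range of control KD means, the median *Yy1* KD level was 95.2% of control KD. The limits required a lower share of the chosen genes, so nothing is read from this difference.

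*Commd2* (ENSMUSG00000036513.15), a member of the COMMD family of adaptor proteins that take part in endosomal sorting, had the highest level of the protein-coding genes. It lies on chromosome 3 from 57644349 to 57651715 (coordinates of GRCm38, as for all positions given here), and its span meets no other annotated gene. It was at 11.2, 12.4 and 11.4 TPM in control KD and at 0.858, 0.275 and 0.427 TPM in *Yy1* KD libraries. The mean was 11.6 ± 0.632 TPM in control KD against 0.520 ± 0.303 TPM in *Yy1* KD (± is the SD with n = 3 throughout). Its lowest control KD library was 13.1 times as high as its highest *Yy1* KD library, the widest gap among the genes with a value above 0 in *Yy1* KD, and 896 read pairs in control KD stood against 34 in *Yy1* KD.

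*Lman1* (chromosome 18, 65980738 to 66022580) encodes a lectin that carries glycoproteins from the endoplasmic reticulum to the Golgi. It was at 6.99, 4.35 and 8.86 TPM in control KD and at 0.761, 0.763 and 0.847 TPM in *Yy1* KD libraries. The *Yy1* KD libraries lay close together at 0.790 ± 0.0489 TPM, whereas the control KD libraries spread over 6.73 ± 2.27 TPM. With 1298 read pairs in control KD and 126 in *Yy1* KD, *Lman1* was the most deeply sampled of the 10 genes in control KD.

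*Metap1d* (chromosome 2, 71453276 to 71525194) encodes a mitochondrial methionine aminopeptidase, an enzyme that removes the first methionine of proteins. It was at 6.56, 3.97 and 6.09 TPM in control KD and at 0.142, 0.321 and 0.601 TPM in *Yy1* KD libraries. The mean in *Yy1* KD was 6.40% of that in control KD, and the lowest control KD library was 6.61 times as high as the highest *Yy1* KD library.

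The zinc finger genes *Zfp157* and *Zfp882* belong to the large class of C2H2 proteins, most of which bind DNA. *Zfp157* (chromosome 5, 138441468 to 138460694) was at 2.53, 3.79 and 3.75 TPM in control KD and at 0.765, 0.849 and 0.758 TPM in *Yy1* KD libraries, and kept 23.5% of its mean. *Zfp882* (chromosome 8, 71908608 to 71916354) was at 2.44, 2.21 and 2.03 TPM in control KD and at 0.326, 0.306 and 0.113 TPM in *Yy1* KD libraries, and kept 11.2%. *Zfp882* shares 104 nt of exonic sequence with *Zfp617*, which averaged 17.9 ± 2.75 TPM in control KD against 15.7 ± 1.27 TPM in *Yy1* KD, with overlapping groups.

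*Jmjd7* (chromosome 2, 120027483 to 120032594) encodes a JmjC-domain hydroxylase. It was at 3.15, 2.96 and 2.50 TPM in control KD and at 0.264, 0.232 and 0.206 TPM in *Yy1* KD libraries, with little spread in either group. It shares 1307 of its 1960 nt of exonic sequence with *Gm28042*, a protein-coding gene on the same strand that extends further, and read pairs on the shared part were divided between them. *Gm28042* was at 1.59, 1.42 and 1.51 TPM in control KD and at 0.199, 0.105 and 0.0778 TPM in *Yy1* KD libraries, and the genes cannot be told apart over the shared part.

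*St3gal5* (chromosome 6, 72097592 to 72154571) encodes the sialyltransferase that makes the ganglioside GM3. It was at 2.21, 2.61 and 2.30 TPM in control KD and at 0.839, 0.0695 and 0.231 TPM in *Yy1* KD libraries. *Yy1* KD replicate 1 held 17 of its 21 *Yy1* KD read pairs, and was far above the other two.

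*Ubxn2b* (chromosome 4, 6191098 to 6221688) encodes an adaptor of the p97 ATPase used in Golgi and endoplasmic reticulum assembly. It was at 2.41, 3.03 and 2.95 TPM in control KD and at 0.953, 0.602 and 0.425 TPM in *Yy1* KD libraries. *Akap9* (chromosome 5, 3928054 to 4081310) encodes a large scaffold protein of the centrosome and Golgi that binds protein kinase A. It was at 2.33, 2.26 and 3.12 TPM in control KD and at 0.441, 0.823 and 0.731 TPM in *Yy1* KD libraries. *Akap9* shares 166 nt with *Cyp51*, a cholesterol synthesis gene on the other strand that averaged 4.84 ± 0.849 TPM in control KD against 2.64 ± 0.294 TPM in *Yy1* KD.

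*Celsr1* (chromosome 15, 85898929 to 86033777) encodes an atypical cadherin of planar cell polarity. It was at 2.38, 2.05 and 3.47 TPM in control KD and at 0.544, 0.657 and 0.833 TPM in *Yy1* KD libraries, and kept 25.8% of its mean.

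**Figure D2:**
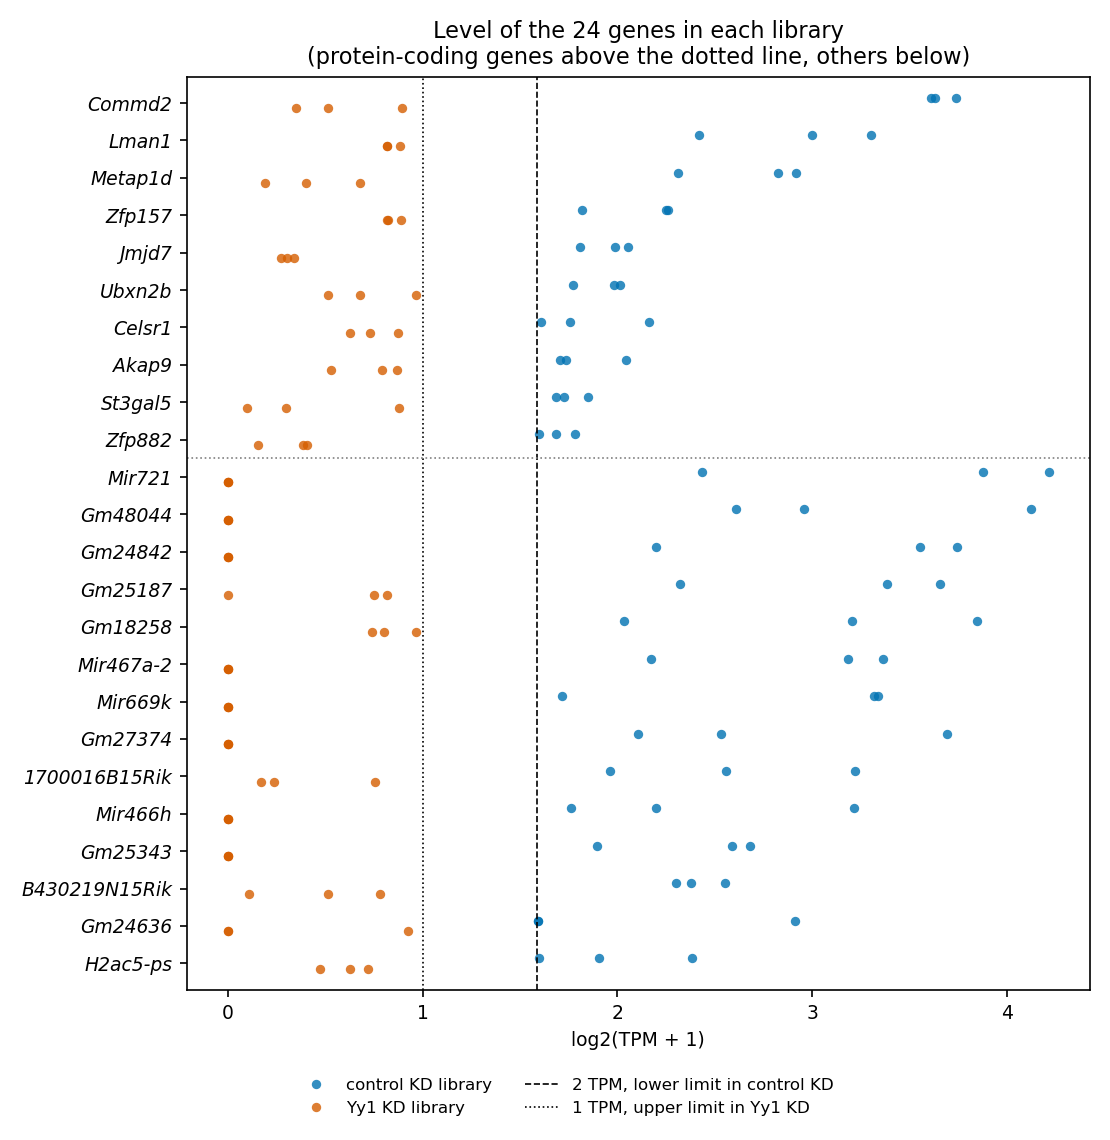
The x axis gives log2(TPM + 1) in each library, the blue points being the 3 control KD and the orange points the 3 *Yy1* KD libraries, and each row is a gene. The 10 protein-coding genes stay above 0 in every *Yy1* KD library, and 8 of the 14 other genes are at 0 in all 3.

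No pathway was tested for the 10 protein-coding genes. *Lman1*, *Ubxn2b*, *Akap9* and *St3gal5* encode proteins that act in or on the Golgi or endoplasmic reticulum, which is a grouping made after the members were seen and carries no test. Described instead were the other tested protein-coding genes with the same symbol stem, which is a shared name and need not mean shared descent. They were read in the limma fit over all 17353 genes tested (TPM of at least 1 in at least 3 libraries, log2(TPM + 1), Benjamini-Hochberg adjusted p under 0.05). In this fit 4.2% of genes were called lower in *Yy1* KD. Of 10 other Commd genes, 2 were called lower and 0 higher. *Commd3* fell from 28.9 ± 3.34 to 12.3 ± 2.40 TPM, with -1.17 ± 0.16 (standard error) as log2 fold change and a limma adjusted p of 0.0145, whereas *Commd5*, *Commd7* and *Commd4* were not called (log2 fold changes of -0.14, 0.07 and 0.18).

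Other genes that share a symbol stem with the protein-coding genes were mostly not called. *Lman2*, the other tested Lman gene, averaged 28.9 ± 3.46 TPM in control KD against 20.2 ± 0.489 TPM in *Yy1* KD (log2 fold change -0.49, limma adjusted p = 0.0561). *Metap1* and *Metap2*, the cytosolic methionine aminopeptidases, had log2 fold changes of -0.20 and 0.12. All 7 other Ubxn genes and all 3 other St3gal genes were not called. *Celsr3* averaged 1.19 ± 0.121 TPM in control KD against 0.793 ± 0.168 TPM in *Yy1* KD and was not called. Of 4 other Jmjd genes, *Jmjd6* was called higher, from 44.5 ± 0.648 to 63.5 ± 2.60 TPM (log2 fold change 0.50, limma adjusted p = 0.0179). Of 9 other Akap genes 1 was called, *Akap8l*, which was lower (log2 fold change -0.72, limma adjusted p = 0.0359). Among 303 other Zfp genes, 15 were called lower and 5 higher, with a median log2 fold change of 0.02. The largest change among the genes named by symbol stem was that of *Zfp42* (*Rex1*), a pluripotency marker and retroposed relative of *Yy1*. It fell from 218 ± 8.57 to 23.5 ± 2.85 TPM (log2 fold change -3.17, limma adjusted p = 0.000118). *Zfp296*, *Zfp106* and *Zfp568*, the others of the 4 Zfp genes with the highest control KD means, were not called (log2 fold changes of 0.11, 0.01 and -0.10).

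In this same fit 22 of the 24 genes were called lower, beside 4.2% of all genes tested, 9 of the 10 protein-coding and 13 of the 14 others. Nothing is read from this count, since the values that gave it also made the choice. *Celsr1* (limma adjusted p = 0.0502) and *Gm24636* (limma adjusted p = 0.0792) were not called. Without control KD replicate 1 the number called was 2, and without control KD replicate 3 it was 3. Groups that do not overlap, which the limits require of the 24 genes, were seen with the lower values in *Yy1* KD for 17.2% of all genes tested.

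The YY1 consensus, GCCATNTT or AANATGGC on the other strand, was searched in promoter windows of RefSeq (GRCm38.p6), which run from 250 bases before to 50 bases after a start. Windows were matched for 6 of the 24 genes, all protein coding, and 3 of the 6 held the consensus. Of the protein-coding genes with at least 2 TPM in all control KD libraries, 11.7% of 7434 matched genes held it, and 6.05% of all 32851 windows did. With only 6 matched genes, these shares were not compared by a test and no enrichment is read from them. *Metap1d*, *Zfp157* and *Zfp882* are shown because they carry the consensus, in capitals, within 30 bases read along the strand of the gene.
*Metap1d*, chr2:71453345-71453374, plus strand: tgaccggagccAACATGGCggcgcccatcg
*Zfp157*, chr5:138441485-138441514, plus strand: ttgctgaccccGCCATCTTggcatctgtgg
*Zfp882*, upstream site, chr8:71908443-71908472, plus strand: agagcatcaccGCCATCTTtctttctggtg
*Zfp882*, site at the start, chr8:71908592-71908621, plus strand: gttcttcacccGCCATCTTtcttcctggca

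In *Metap1d* the site began at base 19 after the start of the window's transcript, and it held an annotated start codon of GENCODE vM21. In *Zfp157* it began at base 21 and met an annotated exon and UTR but no coding sequence. In *Zfp882* both sites read GCCATCTT, the first beginning 152 bases before the start, where no transcript of the gene is annotated, and the second beginning 3 bases before the start and running across it into an annotated UTR. *Zfp882* and *Metap1d* kept 11.2% and 6.40% of their control KD means, and *Zfp157* kept 23.5%. *Jmjd7*, *Akap9* and *St3gal5*, whose windows did not hold these letters, kept 8.14%, 25.9% and 16.0%. *Commd2*, *Lman1*, *Ubxn2b* and *Celsr1* had no window in the table. A relation between the consensus and the level kept was not tested.

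The 14 other genes had short exonic lengths, with a median of 120.5 nt against 5589.5 nt for the 10 protein-coding genes, and 9 of them were shorter than 200 nt. Read pairs behind them were few. In control KD, 9 to 115.5 pairs were counted over the 3 libraries, with a median of 21.6, whereas the protein-coding genes had between 128.5 and 1298. Their coefficient of variation over the control KD libraries had a median of 54.7%, against 15.3% in the protein-coding genes and 12.1% over all genes at or above 2 TPM in all control KD libraries. Control KD replicate 2, the deepest library, was the lowest of the 3 in 9 of the 14 and the highest in 0.

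Among these, 8 were listed at 0 in all *Yy1* KD libraries. They were *Mir721*, *Gm48044*, *Gm24842*, *Mir467a-2*, *Mir669k*, *Gm27374*, *Mir466h* and *Gm25343*, with exonic lengths between 54 and 127 nt and between 9 and 24 read pairs in control KD. A count of 0 allows up to 3 pairs, which in 1 *Yy1* KD library corresponds to between 3.05 and 11.2 TPM for genes of this length. In 7 of the 8 the lowest control KD library was under this level in every *Yy1* KD library. Over the 3 *Yy1* KD libraries together, 3 pairs correspond to between 1.30 and 3.05 TPM. The control KD means as measured were 2.33 (*Mir466h*) to 6.53 (*Gm48044*) times this bound. The bound covers counting error in *Yy1* KD only. Counting error in control KD is not included, where the 9 pairs of *Mir466h* have a Poisson interval of 4.12 to 17.1 pairs. These ratios are therefore not lower limits of the difference, and the control KD values were part of the choice.

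**Figure D3:**
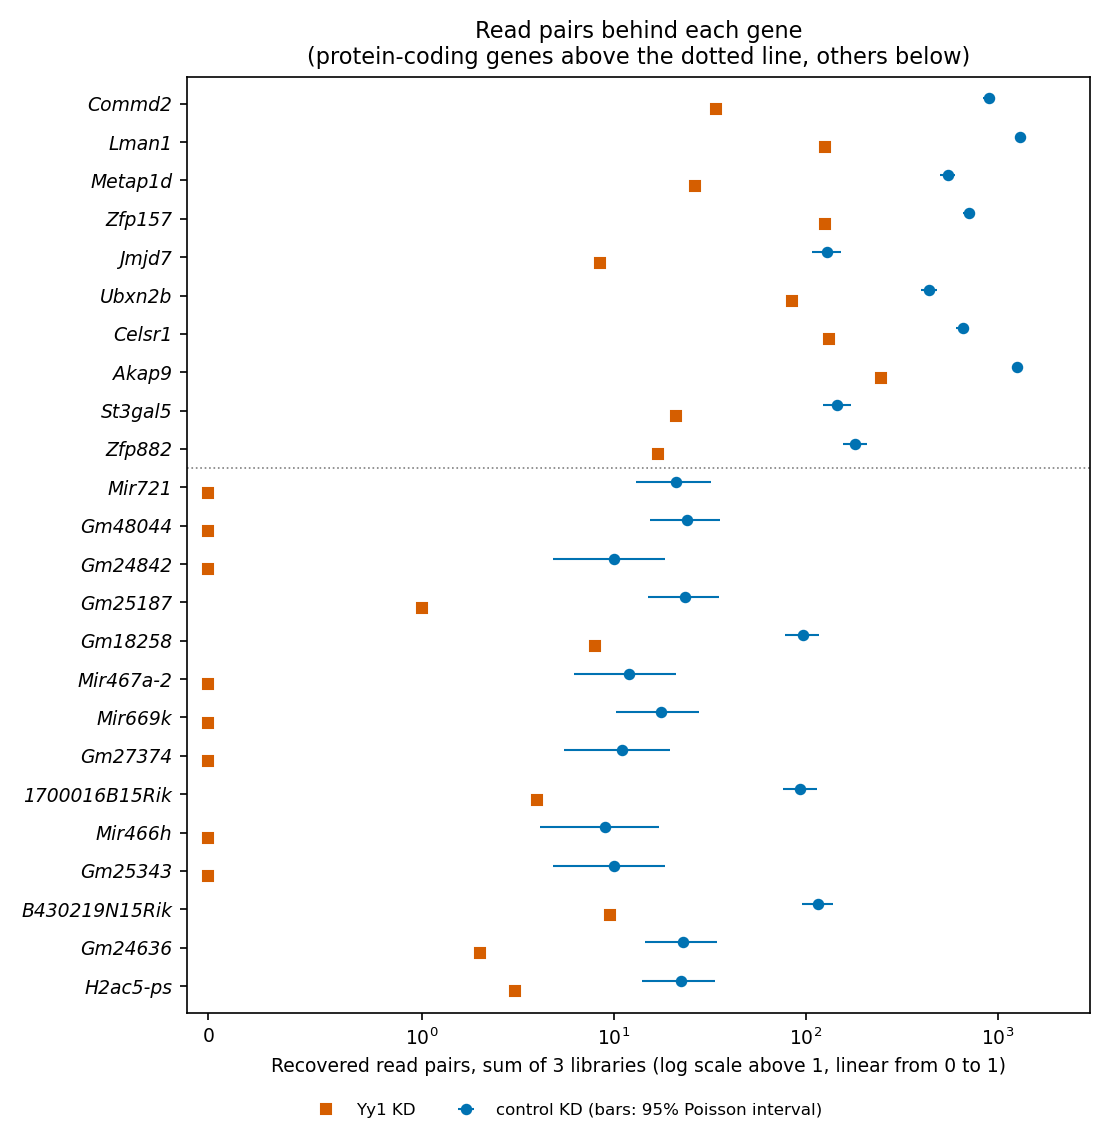
The x axis gives the recovered read pairs summed over 3 libraries, on a log scale above 1 and a linear scale from 0 to 1, with 95% Poisson intervals as bars for control KD (circles). Protein-coding genes have 128.5 pairs or more in control KD, and the 8 genes at 0 in *Yy1* KD (squares) have 24 or fewer.

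Of the 5 miRNA genes, *Mir721* (chromosome 5, 136375716 to 136375803) had the highest control KD level. A read pair was counted for an annotated hairpin when it overlapped it, so that a longer RNA that covers the hairpin counts for it, and mature miRNAs were not measured. *Mir721* was at 17.6, 4.40 and 13.7 TPM in control KD, from 8, 4 and 9 read pairs, and was listed at 0 in *Yy1* KD. It lies in *Cux1*, which encodes a homeodomain transcription factor, on the same strand and outside its exons. *Cux1* averaged 15.3 ± 0.856 TPM in control KD against 10.9 ± 1.73 TPM in *Yy1* KD, or 71.3%, and the groups did not overlap. *Mir721* also lies within the antisense gene *Gm16599*, on the other strand and outside its exons. *Gm16599* averaged 6.43 ± 1.21 TPM in control KD against 4.12 ± 0.808 TPM in *Yy1* KD, or 64.1%, also without overlap. Pairs were counted without strand, so the strand behind the pairs on *Mir721* cannot be told. The mature sequence, from RefSeq, is shown with its seed (bases 2 to 8) in capitals, beside *Mir130a*, which has the same seed; 7 of the 1679 mature miRNAs in the table share it.
mmu-miR-721: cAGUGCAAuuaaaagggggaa
mmu-miR-130a-3p: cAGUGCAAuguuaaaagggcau

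*Mir467a-2*, *Mir669k* and *Mir466h* lie on chromosome 2 within *Sfmbt2*, on the same strand and outside its exons. *Sfmbt2* encodes a Polycomb-related protein and is expressed from the paternal allele in early embryos and placenta, and it holds a large cluster of repeated miRNA genes. *Mir467a-2* was at 9.31, 3.50 and 8.07 TPM in control KD, *Mir669k* at 9.13, 2.29 and 8.97 TPM and *Mir466h* at 2.39, 3.59 and 8.27 TPM, and all were listed at 0 in *Yy1* KD libraries. Read pairs were 12, 17.5 and 9 over the control KD libraries. No mature sequence was matched for them.

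*Sfmbt2* itself, chosen for description after its values were seen, was at 7.83, 8.79 and 16.4 TPM in control KD and at 3.62, 3.61 and 2.90 TPM in *Yy1* KD libraries. Its groups did not overlap, and the mean in *Yy1* KD was 30.6% of that in control KD. Of 119 miRNA genes annotated within *Sfmbt2*, 85 had a TPM above 0 in at least 1 library, and of these 75 had a lower and 10 a higher mean in *Yy1* KD than in control KD. The 75 include the 3 chosen genes, and the count was not tested. Over all genes tested the median log2 fold change was -0.02. Of the 119, 13 were at 2 TPM or more in all control KD libraries, and 3 met the limits. Without the 3 chosen genes, the summed level of the miRNA genes within *Sfmbt2* was 243, 108 and 439 TPM in control KD and 77.8, 64.6 and 53.8 TPM in *Yy1* KD libraries. All 119 together held 142, 127 and 373 read pairs in control KD and 67, 38 and 27 in *Yy1* KD libraries. The cluster and *Sfmbt2* were lower in each *Yy1* KD library than in each control KD library, and the 3 chosen genes were the part of the cluster that met the limits. Control KD replicate 3 was the highest library for both.

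**Figure D4:**
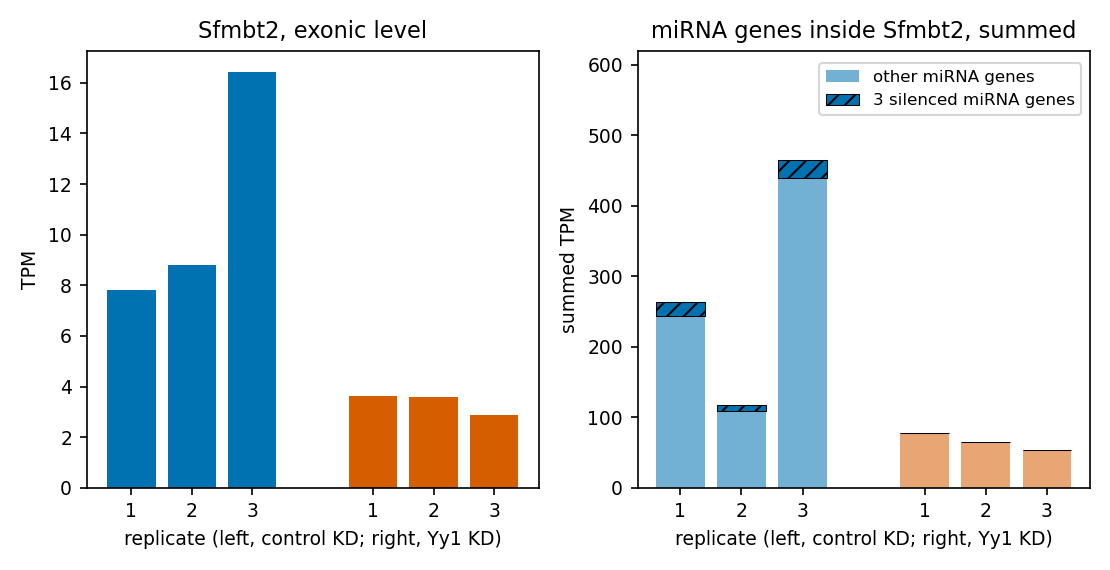
Bars give the level in each library, the exonic TPM of *Sfmbt2* on the left and the summed TPM of the 119 miRNA genes within it on the right, where the hatched part is *Mir467a-2*, *Mir669k* and *Mir466h*. The 3 control KD libraries (blue) are above the 3 *Yy1* KD libraries (orange) in both panels.

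The fifth miRNA gene, *Gm27374* (chromosome 11, 100442395 to 100442475), was at 11.9, 4.78 and 3.31 TPM in control KD and at 0 in *Yy1* KD. It lies on the other strand within *Klhl10*, whose groups overlapped at 9.55 ± 2.22 and 5.69 ± 1.59 TPM. The snRNA genes *Gm24842* and *Gm25343* had 10 read pairs each in control KD and 0 in *Yy1* KD.

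*Gm25187*, a snoRNA gene on chromosome 2 from 158378222 to 158378354, was at 9.44, 4.01 and 11.6 TPM in control KD and at 0, 0.684 and 0.759 TPM in *Yy1* KD libraries. Its 133 nt all lie within an exon of *Snhg11*, a small nucleolar RNA host gene, so that each of its pairs was shared with this gene. *Snhg11* was at 6.39, 3.99 and 7.82 TPM in control KD and at 1.45, 0.650 and 1.17 TPM in *Yy1* KD libraries, or 18.0% of the control KD mean, with groups that did not overlap.

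The longer genes of types other than protein coding also met other genes. *B430219N15Rik* (chromosome 10, 7780185 to 7781357), an antisense gene, was at 4.20, 3.92 and 4.86 TPM in control KD and at 0.716, 0.0775 and 0.430 TPM in *Yy1* KD libraries. It had 115.5 read pairs in control KD, the most of the 14, and shares 157 nt with *Ginm1*, which encodes a membrane glycoprotein. *Ginm1* was at 7.96, 5.09 and 7.13 TPM in control KD and at 1.88, 1.43 and 1.15 TPM in *Yy1* KD libraries, or 22.0%. Since pairs were counted without strand, reads of *B430219N15Rik* and *Ginm1* over the shared exonic sequence cannot be told apart.

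*1700016B15Rik* (chromosome 7, 118740449 to 118741181) was at 2.90, 4.89 and 8.32 TPM in control KD and at 0.176, 0.124 and 0.688 TPM in *Yy1* KD libraries. It shares 327 of its 733 nt with *Vps35l*, a gene of endosomal sorting on the other strand that averaged 7.49 ± 1.69 TPM in control KD against 3.93 ± 0.110 TPM in *Yy1* KD.

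Of the pseudogenes, *Gm18258* (chromosome 7, 138899388 to 138900239) was at 13.4, 8.22 and 3.09 TPM in control KD and at 0.953, 0.671 and 0.745 TPM in *Yy1* KD libraries. It lies within *Bnip3*, on the other strand and outside its exons, and *Bnip3* kept 75.8% of its control KD mean of 421 TPM. *Gm48044* (chromosome 12, 22998355 to 22998468), a processed pseudogene of 114 nt, was at 6.78, 5.10 and 16.5 TPM in control KD and at 0 in *Yy1* KD. *H2ac5-ps*, a histone pseudogene on chromosome 13, had 22.2 read pairs in control KD and 3.07 in *Yy1* KD, and shares 138 nt with *Gm44314*. The misc_RNA gene *Gm24636* had 23 and 2 read pairs. The study's counting of genes did not include pairs aligned to several places, so that pseudogenes and repeated miRNA genes with near-identical copies can be undercounted and their levels are uncertain. *Gm25343*, *B430219N15Rik*, *Gm24636* and *H2ac5-ps* are named here to account for every gene, and they fall outside the rule for named genes.

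In all, 11 of the 24 genes lay within the body of another gene, 8 of these without exonic sequence shared with it, and 7 of the 24 shared exonic sequence with some gene. The spans of 7 met no other annotated gene. The 7 distinct genes that contained a chosen gene without sharing exons with it kept between 30.6% (*Sfmbt2*) and 90.1% (*2410018L13Rik*) of their control KD means, and 5 of the 7 had lower values in *Yy1* KD without overlap of the groups, beside 17.2% of all genes tested. These 7 were chosen for description after their values were seen.

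The same limits were also applied to 2 libraries per group, which gave larger sets, and the replicate left out of that choice was read. For the 24 genes the values there are not free of the choice, since their limits used all libraries. With replicate 1 left out, 28 protein-coding genes were chosen, and 22 of them were lower in the left-out *Yy1* KD than in the left-out control KD library. With replicate 2 left out this was 24 of 26, and with replicate 3 left out it was 24 of 25. In the libraries left out, their median level was 2.07, 2.01 and 2.95 TPM in control KD and 0.783, 0.680 and 0.955 TPM in *Yy1* KD. The 10 protein-coding genes described are among the chosen each time and, by the construction of the limits, are those that met both limits there. They are therefore also among the genes counted as lower each time. The choices share libraries and are not independent of each other. The share of all genes lower in the left-out library was not computed, so these counts have no background beside them.

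The same was read for the other gene types. Of 59, 81 and 65 genes chosen with replicate 1, 2 and 3 left out, 30, 35 and 38 were lower in the left-out *Yy1* KD library, 15, 22 and 17 were higher, and the remaining 14, 24 and 10 were equal. Genes of other types chosen under the reverse limits moved in their own direction in 41 of 86, 39 of 75 and 35 of 68 cases. Protein-coding genes chosen under the reverse limits did so in 18 of 23, 11 of 13 and 7 of 12 cases. The 14 other genes described are likewise among those counted as lower each time. The difference between these shares was not tested.

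**Figure D5:**
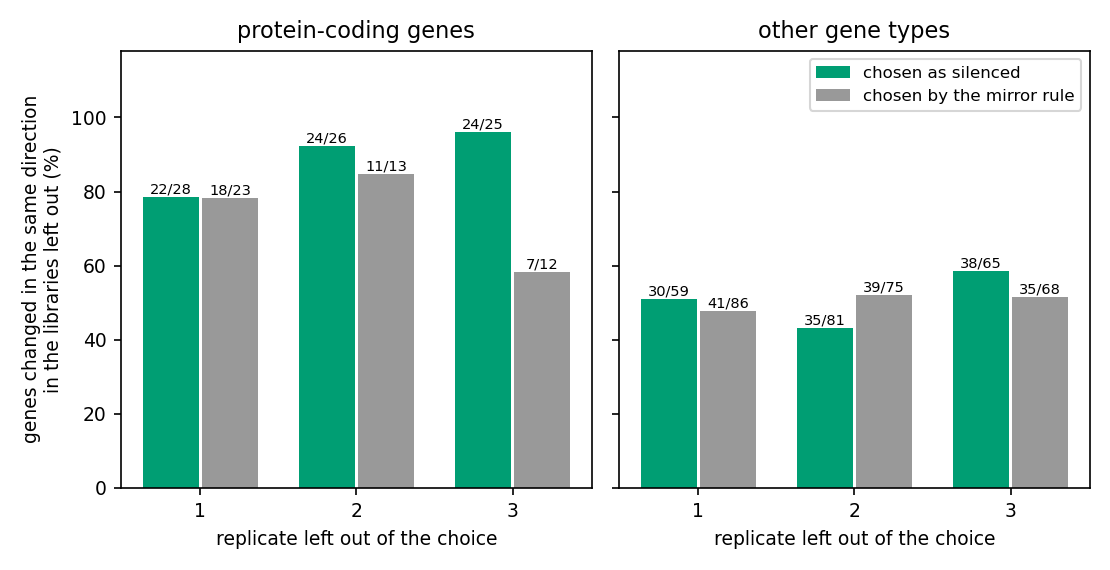
Bars give the percentage of genes that differed in the same direction in the replicate left out of the choice, for genes chosen as under 1 TPM in *Yy1* KD (green) and by the reverse limits (grey), with the counts above the bars. Protein-coding genes chosen in the first way did so in 22 of 28, 24 of 26 and 24 of 25 cases, and other gene types in 30 of 59, 35 of 81 and 38 of 65. By construction these counts include the 10 protein-coding and 14 other genes described.

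Some genes lay close to the limits. Just inside the limit of 2 TPM in control KD were *Gm24636* (lowest library 2.01 TPM), *Zfp882* and *H2ac5-ps* (2.03 TPM each), and just outside it were *Fes* (1.98 TPM), *Decr1* (1.97 TPM) and *Atp2a3* (1.96 TPM). Just inside the limit of 1 TPM in *Yy1* KD were *Gm18258* and *Ubxn2b* (highest library 0.953 TPM each) and *Gm24636* (0.897 TPM), and just outside it were *Bnip1* and *Cldn3* (1.01 TPM each) and *Gm27252* (1.01 TPM). *Fes* encodes a tyrosine kinase, *Decr1* a mitochondrial enzyme of fatty acid oxidation, *Atp2a3* a calcium pump, *Bnip1* a SNARE protein of the endoplasmic reticulum and *Cldn3* a tight junction protein.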

How the data were processed

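RNA-seq libraries were made by the authors with the SMART-Seq Stranded kit. Per the submitters' processing notes and the study's methods, the authors trimmed reads with Trim Galore (0.6.7), aligned them to mm10 with HISAT2 (2.2.1), removed ribosomal RNA reads with bedtools, divided read pairs on several genes among them without regard to strand (featureCounts 2.0.1, GENCODE vM25) and deposited TPM per gene and library. The authors tested counts with edgeR. TPM does not suit a count model, so limma (3.58.1, R 4.3.3) was used here on log2(TPM + 1). It had a variance trend and Benjamini-Hochberg adjusted two-sided p-values. The fit was tested on data simulated with normal noise, with changes placed only in genes above a minimum level. Genes resting on few read pairs are not covered by that simulation.

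The members and lists were chosen with earlier results of these data known. Named genes are *Yy1*, all protein-coding members, the 10 other members with the highest control KD mean, genes at the limits, exonic neighbours and up to 4 genes per symbol stem. Containing genes were added after their values were seen. The results of 2 genes that meet the limits are not reported here. GENCODE vM21 (GRCm38) gave positions and exon lengths for 55104 of 55364 identifiers, 54312 of them in the same version; *Celsr1* and *Akap9* differ in version, so their lengths and read pairs are approximate. Read pairs are TPM times exon length divided by the value of 1 pair; among values under 20 pairs, 80.7% to 81.5% were whole (within 0.01), and the others were mostly sixths, as shared pairs give. Overlaps were found with bedtools (2.31.1). Other steps used numpy 2.4.6, scipy 1.17.1, pandas 2.3.3 and matplotlib 3.10.9 under Python 3.11.15. Intervals are 95% Poisson intervals by the exact formula, and are approximate where shared pairs gave fractional counts. No column of values was left unused (0 columns). Repetitive elements and binding sites were not analysed here.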

Additional observations from a re-analysis of the deposited data

How the results depend on the processing

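The number of genes by the limits moved with the limits, as their construction implies. It was 129 with at least 1 TPM in control KD, 2 with at least 5 TPM (*Commd2* and *Gm48044*), 10 with under 0.5 TPM and 8 with 0 TPM in *Yy1* KD, against 24. When genes under 200 nt were dropped and TPM was rescaled it was 14, of which 9 were among the 24. Median-ratio scaling gave 22 and genes without exonic overlap 17. At least 20 read pairs over control KD, an alternative chosen after seeing the data, gave 18. Leaving out 1 library gave between 38 and 69 genes, since fewer libraries had to meet the limits.

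Over all genes 1061 were called, 333 higher and 728 lower. The count was 347 without a filter on low values (77 higher, 270 lower; 10 of the 24 called), 2161 with limma-voom on recovered read pairs (838 higher, 1323 lower; 13 of the 24) and between 978 and 1025 under the other 4 settings (20 to 22 of the 24). Leaving out 1 library gave between 75 and 418 calls, and between 2 and 11 of the 24. With the replicate number as a block, 287 genes (69 higher, 218 lower) and 11 of the 24 were called. Deviations of same-numbered libraries from their group means correlated at -0.00388 to 0.0747, and those of differently numbered libraries at -0.0713 to 0.0411. The labels do not say whether equal numbers pair the libraries, and these few correlations cannot settle it. The depth limits the short genes most, with 24 or fewer read pairs in control KD behind each of the 8 genes at 0. The cause of the other moves was not tested.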
